A study of Oryza sativa Indica Group and Oryza sativa Japonica Group with 12 samples.

Results

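Chromosomes 4 and 10 of rice were followed along their length in chromatin loops that carry the histone mark H3K27me3. Every loop with both anchors on chromosome 4, or both on chromosome 10, was taken from the 6 deposited loop lists, which gave 26649 loops of 200069 within chromosomes and of 473059 listed in all. Both chromosomes were chosen by their number, without a threshold on any measured value, but with earlier results of these data known. Their ranks among the 12 chromosomes are therefore given as a description. The 12 samples formed 6 groups of 2 labelled replicates, and the authors deposited 1 pooled list per group. MH63 seedling and MH63 root were tissues of the variety Minghui 63, and ZS97 seedling and ZS97 root were tissues of Zhenshan 97, both of the indica group. Dongjin seedling and osemf2b seedling belonged to the japonica group, and the cultivar of both was given as Dongjin. The sample titles give the name of the gene OsEMF2b. The group, called osemf2b here, was taken as a mutant of that gene, with Dongjin seedling as its wild type. No allele, number of lines or plant age is given in the sources used here. All 6 groups were whole seedlings or roots, cross-linked in the same way and enriched with the same H3K27me3 antibody.

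H3K27me3 is written by Polycomb repressive complex 2 (PRC2) and marks genes that are kept silent in a given tissue or stage. EMF2b is a subunit of PRC2 in rice, where it is known for roles in flowering and floral development. ChIA-PET pulls down chromatin with an antibody, ligates DNA ends that lie close together and reads both ends as a paired-end tag (PET), so that a loop is a pair of anchors joined by PETs. Rice chromosomes 4 and 10 are known from cytology for large blocks of heterochromatin, much of it on their short arms.

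Each list is a single measurement without a spread between replicates, so no test was made between groups and values are given as a description. The 95% intervals printed cover counting error alone. Lists held 6806 to 49522 loops and 211615 to 684728 PETs within chromosomes, lowest in osemf2b and highest in Dongjin in both measures. Total tags recovered from the deposited p-values ran from 13400000 in ZS97 root to 51200000 in ZS97 seedling. In bulk tissue, fewer cells with a contact and a weaker contact in each cell cannot be told apart. Positions are those of the lists. They were matched only within the 4 MH63 and ZS97 lists, called the indica set here, and within the pair of Dongjin and osemf2b. No build is given, so these sets were drawn from the overlap of anchors between lists. Where counts or shares are set beside each other across these sets, each list keeps its own coordinates.

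Chromosome 4 held 3272 loops in MH63 root and 2502 in MH63 seedling, and 3343 in ZS97 root and 1689 in ZS97 seedling, and 3717 in Dongjin and 494 in osemf2b. Chromosome 10 held 2652, 2326, 2419, 1295, 2644 and 296 loops in the same order. In both varieties, the root list was longer than the seedling list on each of these chromosomes, and the osemf2b list was the shortest. The number of distinct anchors on chromosome 4 was 932, 827, 935, 679, 845 and 342 in the same order of lists, and on chromosome 10 it was 736, 713, 730, 562, 618 and 235. Anchor number thus varied less between the lists than loop number did.

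Chromosomes 4 and 10 together gave 15.5% of loops within chromosomes in MH63 root and 12.6% in MH63 seedling, and 13.8% in ZS97 root and 11.7% in ZS97 seedling. They gave 12.8% in Dongjin and 11.6% in osemf2b. Their share of PETs was lower than their share of loops in every list, at 12.4%, 10.5%, 12%, 9.60%, 9.83% and 8.99% in the same order. The 2 chromosomes therefore carried few PETs for each loop. Chromosome 10 had 12.3 PETs per loop in MH63 root and 7.51 in MH63 seedling, and 7.36 in ZS97 root, 8.59 in ZS97 seedling and 9.94 in Dongjin. That was the lowest or second lowest value of the 12 chromosomes in these 5 lists. In osemf2b, chromosome 10 had 29.5 PETs per loop, which ranked 5 of 12.

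The median span of a loop on chromosome 4, the distance between anchor midpoints, was 108 kb (100.8 to 113.6) in MH63 root and 147 kb (134.8 to 162.7) in MH63 seedling. It was 145 kb (136.6 to 159.1) in ZS97 root and 107 kb (93.4 to 121.0) in ZS97 seedling. The direction between tissues was opposite in the 2 varieties, but with loops of at least 5 PETs only it was the same, at 84.4 kb in MH63 root and 61.6 kb in MH63 seedling, and 64.5 kb in ZS97 root and 54.9 kb in ZS97 seedling. In Dongjin the median span was 188 kb (176.9 to 203.5), and in osemf2b it was 93.7 kb (77.0 to 106.1). The medians on chromosome 10 were 95.8, 151, 115, 109, 166 and 115 kb in the order of lists given above. With loops of at least 5 PETs only, the medians of both chromosomes outside osemf2b ran from 53.6 to 104.5 kb.

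Along chromosome 4, loops were counted in windows of 1 Mb, each loop once in every window that holds one of its anchors. The coordinates seen reached 32.3 Mb in MH63 and ZS97, which gave 33 windows, and 35.5 Mb in Dongjin and osemf2b, which gave 36. Chromosome 10 reached 23.5 Mb and 23.2 Mb, with 24 windows in both sets. The last window of a chromosome is cut by its end. The median window of chromosome 4 held 110 loops in MH63 root and 85 in MH63 seedling, and 127 in ZS97 root and 51 in ZS97 seedling, and 126 in Dongjin and 13 in osemf2b.

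A stretch of chromosome 4 was almost without loops in all 6 lists. In MH63 and ZS97 it lay between 6 and 10 Mb. The window from 8 to 9 Mb held 6 loops in MH63 root and 5 in MH63 seedling, and 1 in ZS97 root and 4 in ZS97 seedling. In Dongjin and osemf2b the sparse stretch ran from 8 to 11 Mb, where Dongjin had 5, 2 and 9 loops in successive windows and osemf2b had 0, 2 and 2. The loops found there were long. The median span in the window from 8 to 9 Mb was 3439 kb in MH63 root and 14673 kb in MH63 seedling, and the single ZS97 root loop spanned 17681 kb. Loops of these spans reach from the sparse stretch into other parts of the chromosome.

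The sparse stretch of chromosome 10 was narrower. Within the window from 7 to 8 Mb, MH63 root had 39 loops, MH63 seedling 12, ZS97 root 29 and ZS97 seedling 3. In Dongjin the window with fewest loops was 8 to 9 Mb, with 3 loops, and osemf2b had 1 loop there. For osemf2b, no loop was listed from 22 to 24 Mb, where Dongjin had 53 and 11 loops in the 2 windows. A loop that is not listed fell under the authors' thresholds and was not shown to be absent.

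PETs were concentrated in a few windows. On chromosome 4 the window with most PETs was 1 to 2 Mb in both root lists, with 5790 PETs in MH63 root and 2971 in ZS97 root. In MH63 seedling it was 17 to 18 Mb, with 2857 PETs, and in ZS97 seedling 30 to 31 Mb, with 1966. In Dongjin it was 19 to 20 Mb, with 5214 PETs, and in osemf2b 5 to 6 Mb, with 2928. The top window of the roots thus lay on the left side of chromosome 4, and those of the 3 other seedling lists on the right side.

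On chromosome 10 the leading window was 16 to 17 Mb in both roots, with 7779 PETs in MH63 root and 3732 in ZS97 root. It was 2 to 3 Mb in their seedlings, with 3518 PETs in MH63 and 2431 in ZS97. On the coordinates of the japonica lists it was 2 to 3 Mb as well, with 5208 PETs in Dongjin and 4717 in osemf2b. The 3 windows with most PETs held 39.1% of the PETs of chromosome 10 in MH63 root and 38.3% in MH63 seedling, and 37.0% in ZS97 root and 40.6% in ZS97 seedling. The same share was 39.7% in Dongjin and 74.7% in osemf2b. On chromosome 4 it ran from 26.1% to 31.6% in the 5 other lists and was 40.3% in osemf2b.

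**Figure D1:**
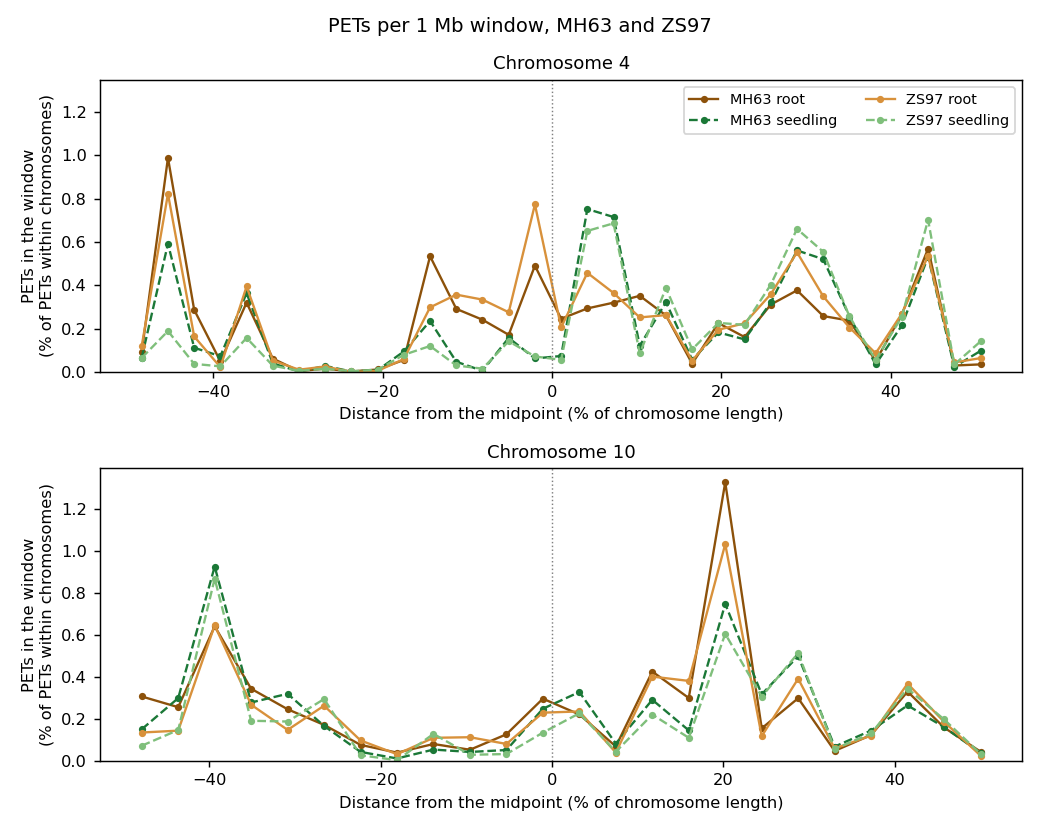
PETs in each 1 Mb window of chromosomes 4 and 10 (% of the PETs within chromosomes of the list) against the distance of the window from the midpoint of the chromosome (% of its length), for the 4 lists of MH63 and ZS97. Root lists (solid) stand above seedling lists (dashed) in several windows before the midpoint of chromosome 4, and all 4 lists have a stretch near 0.

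Window profiles of one tissue were alike across varieties. Across the 33 windows of chromosome 4, Pearson's r of log2 PETs was 0.95 between the roots of MH63 and ZS97 and 0.94 between their seedlings. Between root and seedling it was 0.79 in MH63 and 0.76 in ZS97. Across the 24 windows of chromosome 10 the values were 0.91, 0.94, 0.89 and 0.82 in the same order, and between Dongjin and osemf2b r was 0.69 on chromosome 4 and 0.78 on chromosome 10. Windows of 1 list share its depth and long loops join windows, so these values describe the profiles only.

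The left side of each chromosome, where coordinates start, was set against the right side in every list, with the dividing midpoint of the coordinates at 16.2 Mb on chromosome 4 and 11.7 Mb on chromosome 10 in MH63 and ZS97. In Dongjin and osemf2b it lay at 17.8 Mb and 11.6 Mb. Positions of centromeres were not used, so the left and right sides do not stand for the short and long arms. On chromosome 4, MH63 root had 1562 loops within the left side and 1507 within the right side, MH63 seedling 686 and 1653, ZS97 root 1393 and 1621, and ZS97 seedling 286 and 1229. Dongjin had 1006 and 2447 such loops, and osemf2b 221 and 239. Loops with an anchor on each side were 6.20% to 10.3% of the loops of chromosome 4 and are not in these counts.

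The right side thus held 49.1% (47.3 to 50.9) of these loops in MH63 root and 53.8% (52 to 55.6) in ZS97 root. It held 70.7% (68.8 to 72.5) in MH63 seedling, 81.1% (79.1 to 83.1) in ZS97 seedling and 70.9% (69.3 to 72.4) in Dongjin. In osemf2b it held 52% (47.3 to 56.6). The 3 lists of seedlings other than osemf2b lay above the 3 remaining lists, and their intervals did not overlap those of the roots or of osemf2b. This order spans both sets, each with its own midpoint, so their sides are not matched in position. Among the 12 chromosomes, the share on chromosome 4 ranked 1 in ZS97 seedling and 2 in MH63 seedling and Dongjin, counted from the highest, but 7 in both roots and 5 in osemf2b.

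On chromosome 10 the lists lay in another order. The right side held 55.0% (53.0 to 56.9) of loops in MH63 root and 65.3% (63.2 to 67.3) in MH63 seedling, and 58.6% (56.5 to 60.7) in ZS97 root and 66.3% (63.5 to 69.1) in ZS97 seedling. It held 54.6% (52.6 to 56.6) in Dongjin and 38.7% (32.8 to 44.9) in osemf2b. Roots lay below seedlings in both varieties again. By the midpoint of their own set, Dongjin seedling lay with the roots and osemf2b below all the others.

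**Figure D2:**
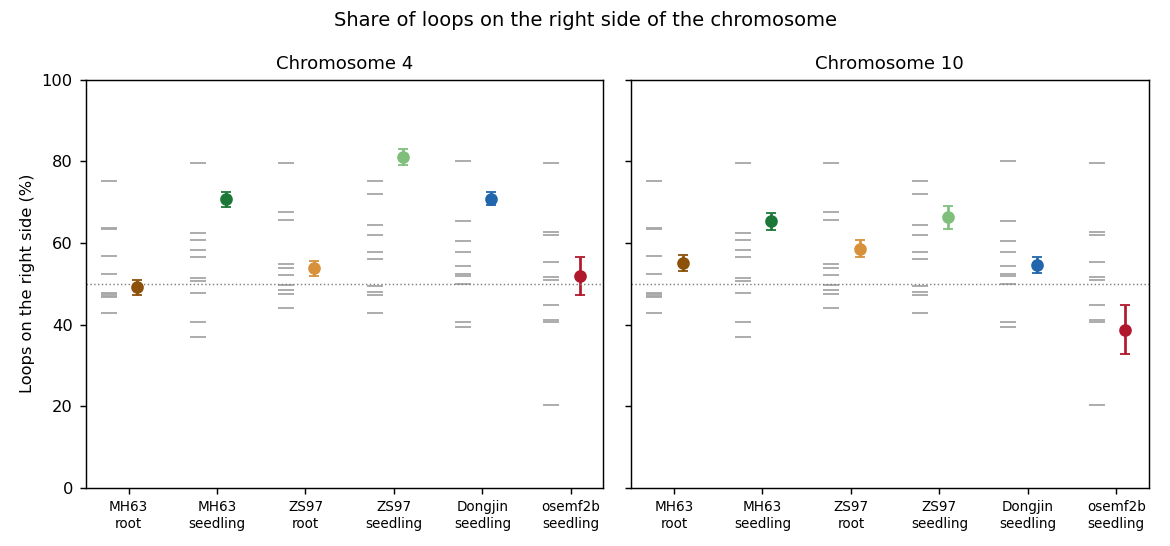
Share of loops on the right side of the chromosome (%) among loops with both anchors on 1 side, per list, with exact 95% intervals as error bars for chromosome 4 (left) and chromosome 10 (right). Grey marks are the other 10 chromosomes in the same list, and the dotted line is an even split. On chromosome 4, ZS97 seedling stands at 81.1% and MH63 root at 49.1%.

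Loops of the right side were mostly shorter. On chromosome 4 their median span was 68.1 kb against 135 kb on the left side in MH63 root, 112 against 165 kb in MH63 seedling and 86.9 against 168 kb in ZS97 root. In Dongjin it was 150 against 206 kb, and in osemf2b 62.3 against 97.6 kb. The exception was ZS97 seedling, at 80.7 kb on the right side and 68.2 kb on the left side, with overlapping intervals. On chromosome 10 it was the right side that had the lower median span in all 6 lists, from 63.6 to 129 kb against 99.7 to 177 kb. Anchors of the left side of chromosome 4 also took part in more loops in the roots, at 7.95 loops per anchor against 5.59 in MH63 and 7.96 against 5.54 in ZS97, while in ZS97 seedling the order was 3.04 against 5.01.

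Root was compared with seedling in each variety. On chromosome 4 both roots had far more loops and PETs on the left side than their seedlings, while the right side differed less. PETs of the left side numbered 17845 in MH63 root and 5828 in MH63 seedling, and 10813 in ZS97 root and 1990 in ZS97 seedling. PETs of the right side numbered 21564, 16031, 13836 and 13242 in the same order. The share of PETs on the right side was 54.7% in MH63 root and 73.3% in MH63 seedling, a difference of -18.6 points (-19.7 to -17.5). It was 56.1% in ZS97 root and 86.9% in ZS97 seedling, a difference of -30.8 points (-32.0 to -29.6).

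Both were the lowest of the differences on the 12 chromosomes, and neither depends on how the lists are scaled against each other. Other chromosomes shared the direction. In MH63, chromosomes 9 and 6 followed at -16.0 and -15.2 points, and in ZS97 chromosomes 6 and 11 at -11.6 and -9.51 points. The highest differences were 9.34 points on chromosome 5 in MH63 and 11.9 points on chromosome 7 in ZS97. Tags at the anchors differed in the same direction. The right side of chromosome 4 held 55.2% of anchor tags in MH63 root and 68.6% in MH63 seedling, with 61.9% in ZS97 root and 75.2% in ZS97 seedling. The part of the anchor tags in the difference of loops was not tested.

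Chromosome 10 gave no single direction. By loops, the right-side share in root minus that in seedling was -10.3 points in MH63 and -7.72 points in ZS97. By PETs, the share was 58.6% in MH63 root and 57.0% in MH63 seedling, a difference of 1.69 points (0.392 to 2.98), and 61.3% in ZS97 root and 58.3% in ZS97 seedling, a difference of 3.07 points (1.40 to 4.74). That sign changed when the windows with most PETs were left out. These lie on the right side in the roots and on the left side in the seedlings, so leaving them out lowers the difference by construction. Without the loops that touch the leading window of either list, the difference in PETs was -9.77 points in MH63 and -7.16 points in ZS97. Counted by loops, the difference had that sign with all windows.

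Single windows were compared after division by all PETs within chromosomes of the list. A window was called where its ratio was at least 2-fold, its interval excluded 1 and both lists together had at least 20 PETs. In MH63 root against MH63 seedling, 11 windows of chromosomes 4 and 10 were called higher and 5 lower of 57 compared. Over all chromosomes 18.6% of windows were called higher and 10.8% lower, so these counts are near the background. In ZS97 root against ZS97 seedling, 14 were called higher and 2 lower of 56, against 21.9% and 6.11% over all chromosomes.

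The called windows were unevenly placed along chromosome 4. Of 16 windows of its left side compared in MH63, 5 were called higher in root and 0 lower, and of 17 on the right side, 2 were higher and 4 lower. In ZS97, 7 of 15 windows of the left side were called higher and 0 lower, and on the right side 2 of 17 were higher and 1 lower. The median log2 ratio was 0.56 on the left side and -0.04 on the right side in MH63, and 0.96 and -0.26 in ZS97. These ratios depend on the scaling.

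Divided by total tags, 8 windows of both chromosomes were called higher and 8 lower in MH63, and 55 higher and 0 lower in ZS97, where log2 ratios shift by 2.31. Unscaled, 21 were higher and 0 lower in MH63, and 23 higher and 1 lower in ZS97. Divided by all PETs of the list, 13 were higher and 2 lower in MH63, and 20 higher and 1 lower in ZS97. The number of windows called lower in root therefore depends on the scaling. It was 0 in MH63 only when unscaled, and 0 in ZS97 only after division by total tags.

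On chromosome 4, 7 windows were called higher in root in both varieties, and 1 was called lower in both. The 7 lay at 2 to 3, 11 to 12, 12 to 13, 13 to 14, 15 to 16, 16 to 17 and 19 to 20 Mb. The window from 13 to 14 Mb had 1415 PETs in 168 loops in MH63 root and 22 PETs in 10 loops in MH63 seedling. It had 1208 PETs in 208 loops in ZS97 root and 44 PETs in 13 loops in ZS97 seedling. Its scaled ratio of root to seedling was the highest on the chromosome in both varieties, at 41.7 (27.4 to 66.7) in MH63 and 21.3 (15.7 to 29.4) in ZS97.

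The window from 15 to 16 Mb had 2877 PETs in MH63 root and 239 in MH63 seedling, and 2794 in ZS97 root and 202 in ZS97 seedling. Its ratio in MH63 was 7.80 (6.84 to 8.94). From 12 to 13 Mb there were 1709, 182, 1291 and 86 PETs in the same order, and the ratio in ZS97 was 11.6 (9.35 to 14.6). All 3 windows lie just before the midpoint, and in each the root lists stood far above the seedling lists of both varieties.

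The window called lower in both roots was the last one, from 32 to 33 Mb, with 208 PETs in MH63 root and 371 in MH63 seedling, and 233 in ZS97 root and 396 in ZS97 seedling. In MH63 the windows from 17 to 18 Mb, 18 to 19 Mb and 26 to 27 Mb were also called lower in root. The first of these had 1721 PETs in MH63 root and 2857 in MH63 seedling, 2.56-fold lower (2.41 to 2.72) after scaling. They were not called in ZS97, and the difference between the varieties was not tested.

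On chromosome 10, 3 windows were called higher in root in both varieties, at 7 to 8, 10 to 11 and 15 to 16 Mb. From 7 to 8 Mb there were 228 PETs in MH63 root and 42 in MH63 seedling, and 114 in ZS97 root and 8 in ZS97 seedling. The scaled ratio was 3.52 (2.52 to 5.01) in MH63 and 11 (5.42 to 26.2) in ZS97. This is the sparse window described above, so its seedling values rest on 12 and 3 loops. From 17 to 18 Mb, the window called lower in both roots, there were 906 PETs in MH63 root and 1204 in MH63 seedling, and 424 in ZS97 root and 857 in ZS97 seedling. No window of either chromosome was called in opposite directions in the 2 varieties.

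**Figure D3:**
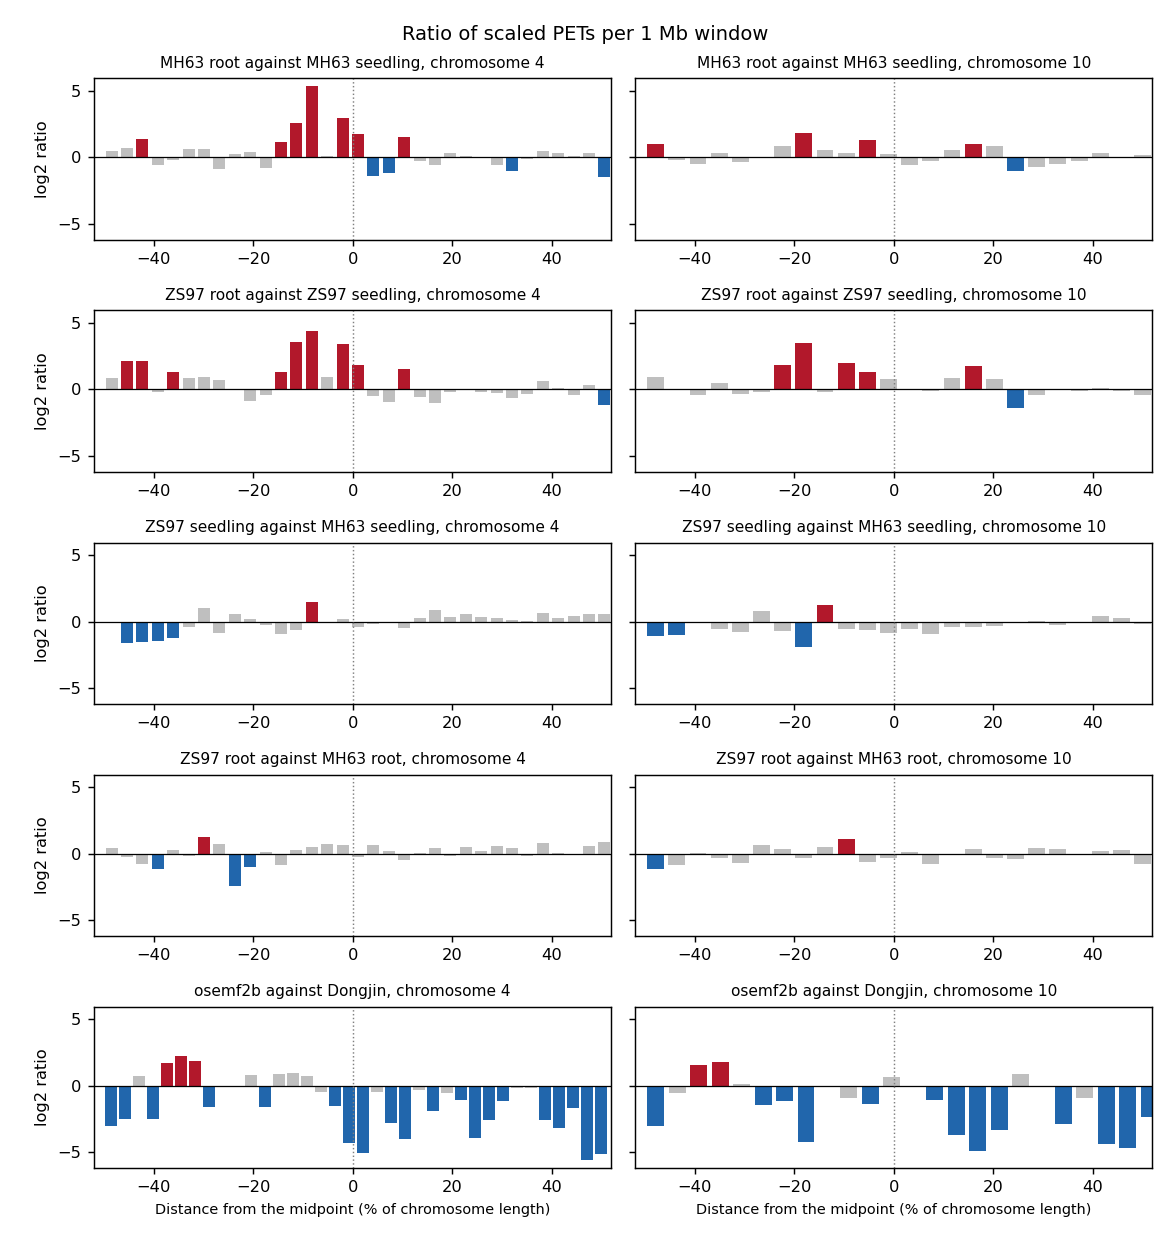
Log2 ratio of PETs per 1 Mb window after division by all PETs within chromosomes of each list, for the 5 comparisons (rows) on chromosome 4 (left) and chromosome 10 (right), against the distance from the midpoint (% of chromosome length). Red bars are windows called higher in the first-named list, blue bars lower, and grey bars were not called. Under other scalings all bars of a comparison move together by a constant.

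Regions were drawn finer, as merged anchors of all lists of a set, and called by the same rule. In MH63, 571 regions of chromosomes 4 and 10 were called higher in root and 150 lower of 1134 compared, against 44.2% and 15.9% over all chromosomes. In ZS97, 392 were higher and 125 lower of 873, against 39% and 17%. On chromosome 4, 169 of 250 regions of the left side were higher in MH63 root and 12 lower, while of 379 on the right side 148 were higher and 83 lower. In ZS97 root, 131 of 173 were higher on the left side and 4 lower, and 96 of 338 were higher on the right side and 90 lower. In both varieties, regions called higher in root were thus a larger share of the left side than of the right side. The direction in ZS97 depends on scaling as for windows, since 87.4% of its regions were called higher after division by total tags.

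Single regions of both chromosomes were named as the extremes of these calls, so they illustrate the contrast and do not test it. On chromosome 4 a region from 15466831 to 15478972 had 346 PETs in MH63 root and 2 in MH63 seedling, and 307 in ZS97 root and 0 in ZS97 seedling. A neighbouring region from 15558103 to 15580476 had 511, 0, 487 and 0 PETs in the same order. The opposite pattern was seen from 26890234 to 26917663 on the right side, with 0, 954, 4 and 484 PETs. The first 2 regions were joined by loops mainly in roots, and the last mainly in seedlings.

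Within chromosome 10 the region from 14761677 to 14789198 had 829 PETs in MH63 root and 0 in MH63 seedling, and 384 in ZS97 root and 0 in ZS97 seedling. A region next to it, from 14873702 to 14899545, had 544, 2, 305 and 0 PETs. Both lie on the right side. From 12587181 to 12598262 there were 0, 71, 8 and 57 PETs, which put both seedlings above both roots.

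Few root loops of the left side of chromosome 4 were also listed in seedlings. To be shared, a loop needed a counterpart whose anchors overlapped both of its own by at least 1 bp. In MH63, 16.8% (15 to 18.8) of root loops of the left side were found in seedling, against 36.0% (33.5 to 38.4) on the right side and 32.4% on the other 10 chromosomes. In ZS97 the shares were 8.90% (7.46 to 10.5), 30.2% (27.9 to 32.5) and 23.3%. Counted from the seedling side, 51.2% of MH63 seedling loops and 57.0% of ZS97 seedling loops of the left side were found in root, against 43.1% and 47.6% on the right side. So the left side of chromosome 4 held many root loops without a seedling counterpart, while most of its seedling loops were listed in root too. These shares depend on the lengths of both lists, and the part of length was not tested. The left side had 1562 root and 686 seedling loops in MH63, and 1393 and 286 in ZS97. On the right side these numbers were 1507 and 1653 in MH63, and 1621 and 1229 in ZS97.

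Root loops of chromosome 10 differed less between its sides. In MH63, 29.0% (26.4 to 31.7) of root loops of the left side and 33.0% (30.5 to 35.5) of those of the right side were found in seedling, and in ZS97 22% (19.3 to 24.8) and 22.9% (20.6 to 25.2). Counted from the seedling side, 52.2% and 50.7% were found in root in MH63, and 59.0% (53.9 to 63.9) and 47.6% (44.0 to 51.2) in ZS97. Of the loops of MH63 root, 4.93% on the left side of chromosome 4 overlapped a loop in each of the 3 other lists of MH63 and ZS97, against 21.2% on its right side. On chromosome 10 these values were 12.3% and 13.4%.

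ZS97 was compared with MH63 in each tissue. These comparisons use the same 4 lists as those between tissues. In unscaled counts of the left side of chromosome 4, ZS97 had fewer loops and PETs than MH63 in both tissues. After division by PETs within chromosomes, the ratio of its PETs was 0.463 (0.440 to 0.488) in seedlings and 0.983 (0.960 to 1.01) in roots. The right-side share of PETs was 86.9% in ZS97 seedling and 73.3% in MH63 seedling, a difference of 13.6 points (12.5 to 14.7), the highest of the 12 chromosomes. In roots it was 56.1% and 54.7%, a difference of 1.41 points (0.299 to 2.53) that changed to -0.434 points without the window from 1 to 2 Mb. The differences on chromosome 10 were 1.3 points (-0.394 to 2.99) in seedlings and 2.69 points (1.41 to 3.96) in roots.

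In ZS97 seedling against MH63 seedling, 2 windows of both chromosomes were called higher and 7 lower of 57, against 5.26% and 9.14% over all chromosomes. In ZS97 root against MH63 root, 2 were higher and 4 lower of 57, against 4.42% and 4.7%. Of the seedling windows called lower in ZS97, 4 lay side by side at the start of chromosome 4, from 1 to 5 Mb. From 1 to 2 Mb there were 530 PETs in ZS97 seedling and 2249 in MH63 seedling, 3.13-fold lower (2.84 to 3.44), and from 2 to 3 Mb 106 and 427, 2.97-fold lower (2.39 to 3.71). In the roots the first of these windows had 2971 PETs in ZS97 and 5790 in MH63 and was not called. The window from 3 to 4 Mb was called lower in ZS97 root too, with 82 PETs against 290 in MH63 root, and was the only window of chromosome 4 called lower in ZS97 in both tissues.

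The 3 other seedling windows called lower in ZS97 were on chromosome 10, at 0 to 1, 1 to 2 and 7 to 8 Mb. From 0 to 1 Mb there were 201 PETs in ZS97 seedling, 571 in MH63 seedling, with 487 in ZS97 root and 1796 in MH63 root, and that window was called lower in ZS97 in both tissues. No window of the right side of either chromosome was called in either tissue under this scaling. Divided by total tags, 0 windows were higher and 50 lower in seedlings, and 29 higher and 0 lower in roots. Unscaled, 1 was higher and 16 lower in seedlings and 0 higher and 17 lower in roots, and divided by all PETs of the list, 1 was higher and 15 lower in seedlings and 0 higher and 10 lower in roots.

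By regions, 111 were called higher in ZS97 seedling and 167 lower of 703, against 16.5% and 18.9% over all chromosomes, and 181 higher and 287 lower of 1197 in roots, against 14.8% and 22.7%. The seedling regions of the left side of chromosome 4 gave 12 higher and 51 lower of 111, and those of its right side 61 higher and 31 lower of 289. Some regions were listed in 1 variety in both tissues. On chromosome 10 a region from 5352430 to 5354110 had 220 PETs in ZS97 seedling, 125 in ZS97 root and 0 in both MH63 lists. Another from 16736705 to 16744534 had 148 PETs in MH63 seedling, 453 in MH63 root and 0 in both ZS97 lists.

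On chromosome 4 the region from 1899369 to 1923420 had 690 PETs in MH63 root and 588 in MH63 seedling, and 582 in ZS97 root and 0 in ZS97 seedling. A region from 1154140 to 1163345 had 329 PETs in MH63 root and 0 in the other 3 lists, while one from 1121617 to 1132094 had 311 PETs in ZS97 root and 0 in the other 3. All 3 regions lie in the window that leads both root lists. Both varieties were taken to be on the same coordinates because their anchors overlap. Differences in sequence between them at these sites were not analysed here.

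osemf2b seedlings were compared with Dongjin seedlings. Both chromosomes had far fewer listed loops in osemf2b, and the shortfall was larger on the right side. On chromosome 4, PETs of the right side numbered 29620 in Dongjin and 3869 in osemf2b, and those of the left side 10648 and 6267. On chromosome 10 they numbered 14873 and 2400 on the right side and 10856 and 5973 on the left side. The right-side share of PETs on chromosome 4 was 38.2% in osemf2b and 73.6% in Dongjin, a difference of -35.4 points (-36.8 to -34.0), and on chromosome 10 28.7% and 57.8%, a difference of -29.1 points (-30.7 to -27.6).

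These were the lowest differences of the 12 chromosomes, which ran up to 19.3 points on chromosome 3. Anchor tags of the right side made up 50.4% in osemf2b and 70.4% in Dongjin on chromosome 4, and 38.4% and 56.8% on chromosome 10. Tags and PETs differed in the same direction, and the part of the tags in the difference of PETs was not tested. The difference on chromosome 10 was smaller without the window that leads both lists, a window picked from these same values. Without loops that touch the window from 2 to 3 Mb the shares were 65.5% in osemf2b and 72.2% in Dongjin, a difference of -6.69 points. By loops, the differences were -18.9 points on chromosome 4 and -15.9 points on chromosome 10, and with equal numbers of strongest loops in both lists -18.6 and -17.2 points.

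**Figure D4:**
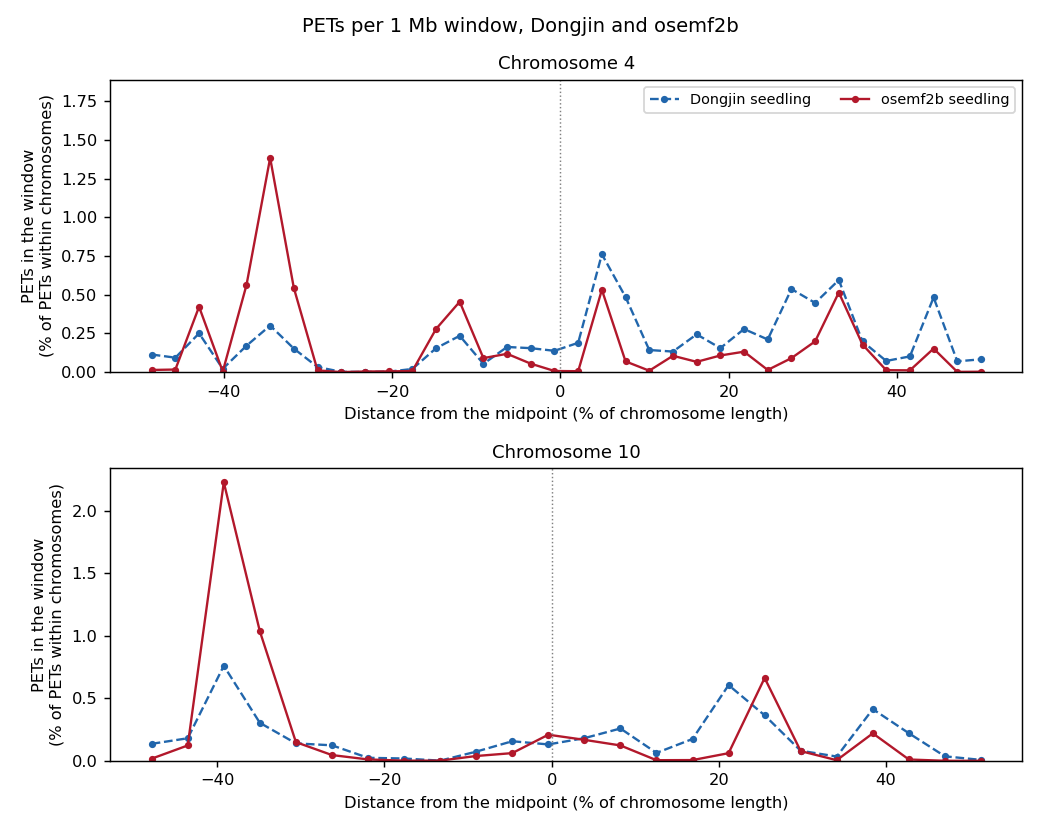
PETs in each 1 Mb window of chromosomes 4 and 10 (% of the PETs within chromosomes of the list) against the distance from the midpoint (% of chromosome length) in Dongjin seedling (dashed) and osemf2b seedling (solid). In osemf2b the highest points are the window from 5 to 6 Mb of chromosome 4 and that from 2 to 3 Mb of chromosome 10, at 1.38% and 2.23%.

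After division by PETs within chromosomes, 5 windows of both chromosomes were called higher in osemf2b and 33 lower of 57, against 8.67% and 56.4% over all chromosomes. Both counts are near the background. The 5 windows called higher were 3 neighbours on chromosome 4, from 4 to 7 Mb, and 2 on chromosome 10, from 2 to 4 Mb. All 5 lie on the left side. Unscaled, and divided by total tags, 0 windows were higher and 46 and 45 lower, so that the word higher means here a larger share of the PETs of the list. Divided by all PETs of the list, 5 were higher and 35 lower.

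PETs from 5 to 6 Mb of chromosome 4 numbered 2928 in 41 loops in osemf2b and 2059 in 183 loops in Dongjin, a scaled ratio of 4.60 (4.35 to 4.87). From 6 to 7 Mb they numbered 1150 in 22 loops and 1039 in 92 loops, a ratio of 3.58 (3.29 to 3.90). The window of chromosome 10 from 2 to 3 Mb had 4717 PETs in 74 loops and 5208 in 323 loops, a ratio of 2.93 (2.82 to 3.05) although unscaled PETs were lower in osemf2b, and that from 3 to 4 Mb 2194 in 37 loops and 2081 in 212 loops, a ratio of 3.41 (3.21 to 3.62). In these 4 windows PETs of osemf2b were close to or above those of Dongjin, while its loops were far fewer.

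At the other extreme, the end of chromosome 4 was almost empty in osemf2b. From 34 to 35 Mb it had 3 PETs in 1 loop against 476 in 80 loops in Dongjin, 49.0-fold lower (16.7 to 239) after scaling. From 35 to 36 Mb it had 5 PETs against 565, 34.9-fold lower (14.9 to 108). Within chromosome 10 the window from 15 to 16 Mb had 12 PETs against 1196, 30.8-fold lower (17.6 to 59.8), and that from 22 to 23 Mb had 0 against 244. With the 0 set to a floor of 3 PETs the latter was 25.1-fold lower, and the lower limit of its interval was 20.3-fold.

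By regions, 48 were called higher in osemf2b and 668 lower of 872, against 5.73% and 78% over all chromosomes. On chromosome 4 the left side had 28 higher and 81 lower of 152, and the right side 2 higher and 299 lower of 349. The counts on chromosome 10 were 14 higher and 110 lower of 165 on the left side, and 4 and 178 of 206 on the right side. The lower calls were thus a larger share of the right side on both chromosomes. Many of them had no listed loop in osemf2b and entered through Dongjin alone. On chromosome 4 these were 56 on the left side and 204 on the right side, and on chromosome 10 they were 75 and 130. A region of chromosome 4 from 6218284 to 6236830 had 645 PETs in osemf2b and 233 in Dongjin, while one from 27283824 to 27298335 had 2 and 378.

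Most loops of osemf2b were also loops of Dongjin. Of osemf2b loops, 66.2% (61.8 to 70.4) on chromosome 4 and 67.2% (61.6 to 72.5) on chromosome 10 overlapped a Dongjin loop, against 69.9% on the other 10 chromosomes. In reverse, 16.8% (14.5 to 19.3) of Dongjin loops on the left side of chromosome 4 were found in osemf2b and 7.19% (6.20 to 8.29) on the right side. On chromosome 10 these shares were 11.5% (9.69 to 13.5) and 5.27% (4.14 to 6.60), beside 9.08% on the other 10 chromosomes. Shares in both directions depend on the lengths of the lists, with 3717 loops on chromosome 4 in Dongjin and 494 in osemf2b.

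Hubs are the anchors with most partners on the same chromosome. Along chromosome 4 the first hub lay in the window with most PETs in MH63 root and ZS97 seedling, and outside it in the 4 other lists. In MH63 root the first hub of chromosome 4 lay from 1237273 to 1282643 with 46 partners, and the next from 11257821 to 11309348 with 45. In ZS97 root they lay from 13074392 to 13104735 with 66 partners and from 11257852 to 11309752 with 58. The hub near 11.3 Mb was thus among the first 2 in both roots, and all 4 lay on the left side. Overlapping anchors in seedlings had 38 partners and 529 PETs in MH63 and 17 partners and 196 PETs in ZS97, whereas at the hub from 13074392 to 13104735 they had 3 partners in each variety. In MH63 seedling and ZS97 seedling the first hub was one near the other end, from 30420633 to 30455137 with 63 partners and from 30420564 to 30455130 with 41. There the roots had 35 partners in MH63 and 40 in ZS97.

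In Dongjin the first hub of chromosome 4 ran from 33468909 to 33500915 with 59 partners. In osemf2b it covered almost the same stretch, from 33465901 to 33503510, with 23 partners and 269 PETs against 1516 in Dongjin. This anchor led in both lists with fewer partners in osemf2b, while the second hub of osemf2b, from 13241479 to 13256702 with 15 partners, lay on the left side.

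On chromosome 10 the first hub of both roots lay on the right side, from 16945665 to 17047395 with 42 partners and 2789 PETs in MH63 root and from 16955605 to 17038403 with 58 partners and 1391 PETs in ZS97 root. Overlapping anchors had 42 partners and 1440 PETs in MH63 seedling and 22 partners and 1122 PETs in ZS97 seedling, so that all 4 lists joined many loops there. The leading hub of the seedlings was on the left side, from 2365900 to 2466181 with 82 partners in MH63 and from 2357574 to 2463662 with 46 in ZS97, where the roots had 26 and 44. In Dongjin it lay from 2383366 to 2436555 with 64 partners, and in osemf2b from 2691766 to 2744912 with 26 partners. The 82 partners in MH63 seedling were the most of any anchor on chromosomes 4 and 10 in the 6 lists, and 11 of them lay on the other side.

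Anchors with at least 10 partners were counted per side. On chromosome 4 the left side had 121 in MH63 root and 51 in MH63 seedling, and 109 in ZS97 root and 10 in ZS97 seedling, and 82 in Dongjin and 13 in osemf2b. The right side had 102, 106, 115, 63, 199 and 6 in the same order. On the left side both roots stood above both seedlings of their set, while on the right side MH63 root and seedling were close and ZS97 root stood above ZS97 seedling.

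**Figure D5:**
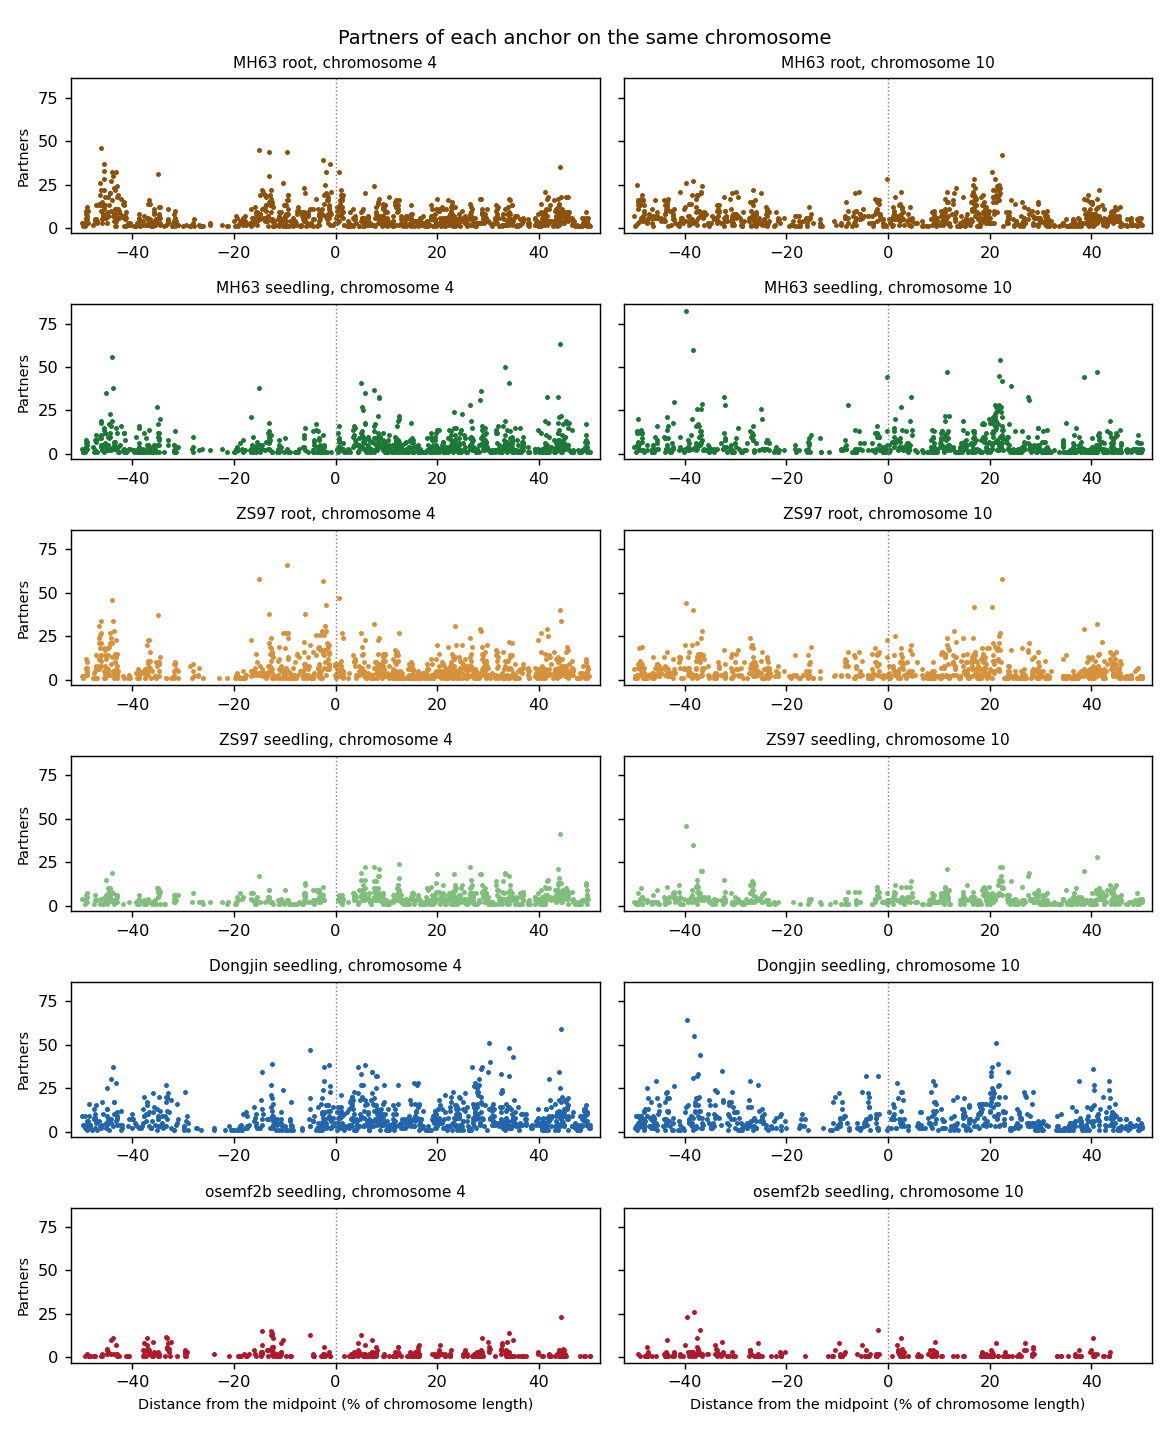
Number of partners on the same chromosome for every anchor of chromosome 4 (left) and chromosome 10 (right) in each of the 6 lists (rows), against the distance of the anchor from the midpoint (% of chromosome length). Each point is an anchor. The highest point, with 82 partners, is on chromosome 10 in MH63 seedling, and no osemf2b anchor exceeds 26.

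The strongest loops over 20 kb were mostly common to several lists. On chromosome 10 a loop from 18189431 to 18209112 with 18214675 to 18240960 joined 428 PETs in MH63 root, and loops overlapping it at both anchors had 620 PETs in MH63 seedling, with 521 in ZS97 root and 587 in ZS97 seedling. On chromosome 4 the strongest ZS97 root loop, from 25316541 to 25358238 with 25376895 to 25416975, had 503 PETs, beside 619 in MH63 root, 555 in MH63 seedling and 511 in ZS97 seedling. Both loops lie on the right side, and these PETs are not scaled for the totals of the lists.

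In MH63 root the strongest loop of chromosome 4, from 30417985 to 30461365 with 30474824 to 30492868, had 891 PETs, and overlapping loops had 116 PETs in MH63 seedling, with 475 in ZS97 root and 171 in ZS97 seedling. It stood higher in roots in unscaled PETs and ties the seedling hub described above to its neighbour. In MH63 seedling the strongest loop of chromosome 10 joined the 2 leading seedling hubs over 317 kb, with 528 PETs, beside 336 in MH63 root, 210 in ZS97 root and 476 in ZS97 seedling.

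In osemf2b the strongest loop of chromosome 10 joined its 2 leading hubs, from 2372730 to 2441889 with 2691766 to 2744912. It had 1298 PETs over 311 kb in osemf2b and 294 in Dongjin. On chromosome 4 the strongest osemf2b loop, from 5888868 to 5944159 with 5981356 to 6017633, had 776 PETs against 287 in Dongjin. These 2 loops had more PETs in osemf2b even unscaled. By contrast, the strongest Dongjin loop of chromosome 4, from 19505173 to 19531652 with 19532810 to 19558541, had 1092 PETs and no overlapping loop in osemf2b, while that of chromosome 10, from 17804317 to 17819757 with 17829488 to 17852285, had 962 PETs in Dongjin and 717 in osemf2b.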

How the data were processed

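The authors deposited 1 loop list per group, with both replicates pooled and no columns for single replicates. No aligner, loop caller or build is given in the sources used here. Raw counts of PETs per loop and tags per anchor, without normalisation, were deposited by the authors. The p-value and false discovery rate of each loop were deposited as such and as −log10 values, and the highest false discovery rate was 0.0499. The span was computed as the distance between the anchor midpoints.

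Total tags per list were recovered, under a Poisson model, from the p-values that 2-PET loops have when there are more than 200 tags at both anchors. Positions are 1-based. The midpoint is the middle of the highest anchor end over the lists of a set (MH63 with ZS97, Dongjin with osemf2b). A loop belongs to a side when both anchor midpoints lie in it. Windows were 1 Mb, and a list with 0 PETs entered as 3. Ratios have exact conditional binomial intervals, shares exact Clopper-Pearson intervals and medians binomial order statistic intervals, all at 95%, and the interval of a difference runs between the far ends of both. PETs are amplified molecules, so these cover counting error only.

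Named windows, regions, hubs and loops followed a rule: per list and chromosome the 3 windows with most PETs, the window with fewest loops, the 2 anchors with most partners and the strongest loop over 20 kb, and per comparison up to 2 windows of highest and lowest ratio, and the highest, the lowest and the strongest singly listed regions. The windows from 6 to 11 Mb, the windows called in both varieties, those called between varieties and the hub counts of each side were chosen after their values were seen. The chromosomes, measures and rules were chosen with earlier results of these data known. Genes and sequences were not analysed here, since no annotation or genome of the lists' builds was used. Python 3.11.15, numpy 2.4.6, pandas 2.3.3, scipy 1.17.1 and matplotlib 3.10.9 were used, and the calls were tested on simulated data.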

Additional observations from a re-analysis of the deposited data

How the results depend on the processing

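No paired analysis was possible because each group has 1 pooled list, and leaving out a replicate was not possible for the same reason. Of 168 results recomputed under alternatives, 92 stayed within their counting interval or within 1.5 times the count, among them all with the midpoint from the list itself and all with an overlap of 50% of the shorter anchor. The alternatives without the windows with most PETs and with equal numbers of strongest loops were chosen after seeing the data.

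For the right-side share of loops, assigning loops by their midpoint gave 68.7% in MH63 seedling, 77.4% in ZS97 seedling and 68.5% in Dongjin on chromosome 4, and 63.2% in both MH63 seedling and ZS97 seedling on chromosome 10. With loops of at least 5 PETs it was 84.2% in ZS97 seedling on chromosome 4, and 61.0% in MH63 seedling, 60.2% in ZS97 seedling and 32.7% in osemf2b on chromosome 10. Median spans with these loops were 84.4, 61.6, 64.5, 54.9 and 104.5 kb on chromosome 4 and 74.2, 67.9, 53.6, 56.6 and 90.8 kb on chromosome 10 in MH63 root, MH63 seedling, ZS97 root, ZS97 seedling and Dongjin.

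For the difference in the right-side share of PETs, loops of at least 5 PETs gave 4.81 points for MH63 tissues and 6.31 for ZS97 tissues on chromosome 10, and -37.0 for osemf2b on chromosome 4. Without the windows with most PETs, the values on chromosome 4 were -16.5 for MH63 tissues, -27.7 for ZS97 tissues, 16.6 and -0.434 for ZS97 against MH63 in seedling and root, and -28.5 for osemf2b. On chromosome 10 they were -9.77, -7.16, 3.28, 5.39 and -6.69. The values -9.77, -7.16 and -0.434 are reversed against the report. For -9.77 and -7.16, the windows left out lower the difference by construction. For -0.434, the window left out, from 1 to 2 Mb, lies on the left side and leads both root lists. The sign of that small difference in roots therefore depends on this window. For the difference in the share of loops, equal numbers of strongest loops gave values within the counting interval in all 5 comparisons on both chromosomes.

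The percentage of windows of both chromosomes called moved most with the scaling. Unscaled, it was 36.8% higher and 0% lower for MH63 tissues, 41.1% and 1.79% for ZS97 tissues, 1.75% and 28.1% for ZS97 against MH63 seedlings, 0% and 29.8% for the roots, and 0% higher for osemf2b. Scaled on all PETs, it was 3.51% lower for MH63 tissues, 1.79% lower for ZS97 tissues, 1.75% and 26.3% for the seedlings, and 0% and 17.5% for the roots. Scaled on total tags, it was 14% lower for MH63 tissues, 98.2% and 0% for ZS97 tissues, 0% and 87.7% for the seedlings, 50.9% and 0% for the roots, and 0% higher for osemf2b. Regions on total tags gave 87.4% and 1.60%, 4.13% and 72.7%, and 40.3% and 15.6% in the same 3 comparisons, and 1.49% higher for osemf2b.

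With loops of at least 5 PETs, windows were 29.1% higher for MH63 tissues, 7.41% lower for ZS97 tissues, 7.41% and 20.4% for the seedlings, and 1.79% and 14.3% for the roots. In windows of 0.5 Mb they were 6.80% lower for ZS97 tissues, 5.83% and 18.4% for the seedlings and 6.48% higher for the roots. Among regions listed in both lists, 28.7% were higher for ZS97 tissues, 15.1% lower for the roots of the varieties, and 11.1% higher and 50.2% lower for osemf2b. Log2 ratios shift by -0.28, 2.31, -1.65, 0.93 and -1.36 on total tags in the order of the 5 comparisons.

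Depth was 13400000 to 51200000 total tags per list, and loops of 2 PETs made up 20.2% to 40.6% of the loops of these chromosomes. Counts of loops, spans and shared loops depend on that depth. The right-side shares compare positions within a list, but several of them moved with loops of at least 5 PETs, as given above. Their dependence on depth was not tested.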
